A study of Mus musculus with 6 samples.

Results

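The cytochrome P450 family Cyp2 supplies many of the enzymes with which the mouse liver oxidizes drugs, steroids, bile acids and arachidonic acid, and 10 of its genes are described here: Cyp2b9, Cyp2b10, Cyp2b13, Cyp2c29, Cyp2c37, Cyp2c70, Cyp2d26, Cyp2f2, Cyp2j5 and Cyp2a5. They were taken by name, and a probeset (a group of short probes read as 1 signal) counted for a gene when its annotation gave that symbol and no other. By this rule 9 of the 10 genes had 12 probesets, of 18193 genes and 45037 probesets on the array. Cyp2a5, the coumarin hydroxylase of mouse liver, had no probeset of its own, since the 1 that names it also names Cyp2a4.

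Liver RNA was measured in 3 KRAP-/- mice and in their 3 wild-type littermates, with 1 Affymetrix Mouse Genome 430 2.0 array per mouse. All 6 mice were 32 weeks old and fed normal chow. In the KRAP-/- mice, which lack the gene throughout the body, exons 11 to 16 of KRAP were replaced by a neomycin resistance cassette, and the line had been crossed 6 times to C57BL6/J. The 3 littermate pairs ask how the levels of these enzymes differ in liver when KRAP is absent. The labels do not give the sex of the mice.

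A P450 enzyme holds a heme and takes electrons from P450 oxidoreductase, helped in some reactions by cytochrome b5. Transcription of Cyp2 genes in hepatocytes depends on factors such as HNF4A, on the xenobiotic receptors CAR and PXR, which foreign compounds activate, and on the pattern of growth hormone secretion, which makes several of the genes differ between male and female livers. Cyp2b10 is the standard target of CAR and of the drug phenobarbital in mouse liver.

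The genes sit mostly in P450 clusters. In the RefSeq annotation of GRCm38.p6, 5 members lie on chromosome 7 between 25897658 and 27133660, in the order Cyp2b10, Cyp2b13, Cyp2b9, Cyp2a5 and Cyp2f2. Another 3, Cyp2c29, Cyp2c37 and Cyp2c70, lie on chromosome 19 between 39287044 and 40187286. Cyp2d26 is on chromosome 15 (82790107 to 82794452) and Cyp2j5 on chromosome 4 (96627432 to 96664171). The RefSeq promoter table, which runs from 250 bases before to 50 bases after a start site, holds all 10. The 250 bases before the start of Cyp2b9 and Cyp2b13 are shown because these neighbours are nearly the same there, while their probesets gave different values below. They share 248 bases (99.2%) and differ at 2, in capitals, which are T48C and C104T with the Cyp2b9 base first and positions counted from 1 at the 5′ end. The Cyp2b9 window is chr7:26173159-26173408 and the Cyp2b13 window is chr7:26061245-26061494, both on the plus strand of GRCm38.p6. The start site of the promoter table need not be the first base of the gene span.
Cyp2b9: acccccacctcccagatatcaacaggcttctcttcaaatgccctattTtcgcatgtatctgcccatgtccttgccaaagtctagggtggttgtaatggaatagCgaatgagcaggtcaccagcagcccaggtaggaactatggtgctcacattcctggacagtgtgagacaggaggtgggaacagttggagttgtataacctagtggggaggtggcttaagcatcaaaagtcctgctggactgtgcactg
Cyp2b13: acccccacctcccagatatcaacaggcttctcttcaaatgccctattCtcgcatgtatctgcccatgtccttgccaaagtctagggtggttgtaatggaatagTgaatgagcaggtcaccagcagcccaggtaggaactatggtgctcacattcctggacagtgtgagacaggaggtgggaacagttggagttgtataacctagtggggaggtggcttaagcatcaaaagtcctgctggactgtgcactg

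Cyp2b10 is less like them, with 182 of 250 bases (72.8%) the same as in either in a global alignment that allowed gaps. Aligned in this way, Cyp2c29 and Cyp2c37 share 150 (60%), and the other pairs of promoters share 47.6 to 56.4%. Gaps were placed for the best score, so these shares are not counts position by position and do not measure likeness on their own. The letters CAAAGTC, the core of an HNF4-type element, stand on either strand of 6 of the 10 promoters (Cyp2a5, Cyp2b13, Cyp2b9, Cyp2c29, Cyp2c37 and Cyp2c70), against 4.44% of all 32851 promoters in the table. These letters were chosen after the member promoters had been read. In Cyp2b9 and Cyp2b13 they overlap a C/EBP-type match, TTGCNNAA, which 5 of the 10 hold, against 10.8% of all promoters. The windows of the 3 Cyp2c genes are shown, with CAAAGTC in capitals and 20 bases on each side, because these 3 carry the same letters and have the readings given below. On GRCm38.p6 they are chr19:39286956-39287002 (plus strand), chr19:39992220-39992266 and chr19:39992288-39992334 (plus strand), and chr19:40187324-40187370 (minus strand).
Cyp2c29: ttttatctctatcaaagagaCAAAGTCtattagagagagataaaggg
Cyp2c37, upstream match: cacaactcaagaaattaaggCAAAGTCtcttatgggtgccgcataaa
Cyp2c37, downstream match: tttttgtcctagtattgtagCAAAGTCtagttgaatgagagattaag
Cyp2c70: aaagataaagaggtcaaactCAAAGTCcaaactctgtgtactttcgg

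Of the other letters searched on both strands, AGGTCA, a nuclear receptor half-site, was in 7 of the 10 (16.3% of all promoters), TATAAA in 5 (13.6%) and the STAT-type TTCNNNGAA in 0 (8.3%). A match is a run of letters and not a measured binding site.

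The signals are linear intensities divided by the median of their array, so that 1 is a probe of median brightness, and levels are compared between mice and not between probesets. The median signal before this division was 20.2 to 23.4 on the KRAP-/- arrays and 19.1 to 22.6 on the wild-type arrays. The 8 hepatocyte markers read at least 130 on every array, and their summed signal was 3851 to 4475 in KRAP-/- livers and 4031 to 4110 in wild-type livers. Xist read 66.3 to 85.6 and 3 genes of the Y chromosome at most 0.526, the readings of female mice. The 1 probeset of KRAP, now named Itprid2, read 21.6, 21.3 and 20 in KRAP-/- livers, against 23.9, 24.5 and 22.3 in wild-type livers (log2 fold change -0.17, adjusted p = 0.44 from limma). Its place relative to the deleted exons is not given in the sources used here, so it does not check the genotype. All fold changes are KRAP-/- over wild type on log2 of the signal floored at 0.1, from limma with each littermate pair entered as a block. The fit covered 28531 probesets whose signal averaged 0.5 or more, over all of which p-values were adjusted, and a probeset passed at an adjusted p under 0.05.

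All 12 member probesets entered the fit, and 0 passed in either direction, against 0.431% of all probesets that were higher and 0.978% that were lower in KRAP-/- livers. By an unadjusted p under 0.05, 2 were higher (Cyp2b13 and Cyp2c37) and 4 were lower (Cyp2c70, Cyp2f2 and both probesets of Cyp2j5). These 6 are 50% of the 12, against 14.9% of all fitted probesets. The count rests on the choice of pairs and settings, since it was 4, 2 and 7 without pairs 1, 2 and 3, 3 on the values as deposited, 2 with no limit on dim probesets and 0 with no intensity trend. The KRAP-/- and wild-type signals did not overlap for 1 member probeset that was higher, Cyp2c37, and for 2 that were lower, Cyp2f2 and the brighter probeset of Cyp2j5. Over all fitted probesets 7.8% were higher and 12.3% lower without overlap, close to 1 and 2 of 12. A ratio of at least 1.5 in the same direction in all 3 pairs was met by 0 member probesets. Over all 45037 probesets, with no limit on dim ones, 2.3% were higher and 2.88% lower by this rule. The study also filtered by fold change in its pairs, but it reported far fewer changed probesets in liver. The shares given here are therefore not those of its list, and the reason for the difference was not tested. The log2 fold changes of the 12 ran between -0.47 and 0.28, with 9 below 0 and a median of -0.27, against -0.04 over all fitted probesets. Cyp2b10 counts 3 times and Cyp2j5 has a pair of probesets in that median. With each gene at its brightest probeset the median was -0.08 over the 9 genes and -0.08 over all 13217 genes tested.

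**Figure D1:**
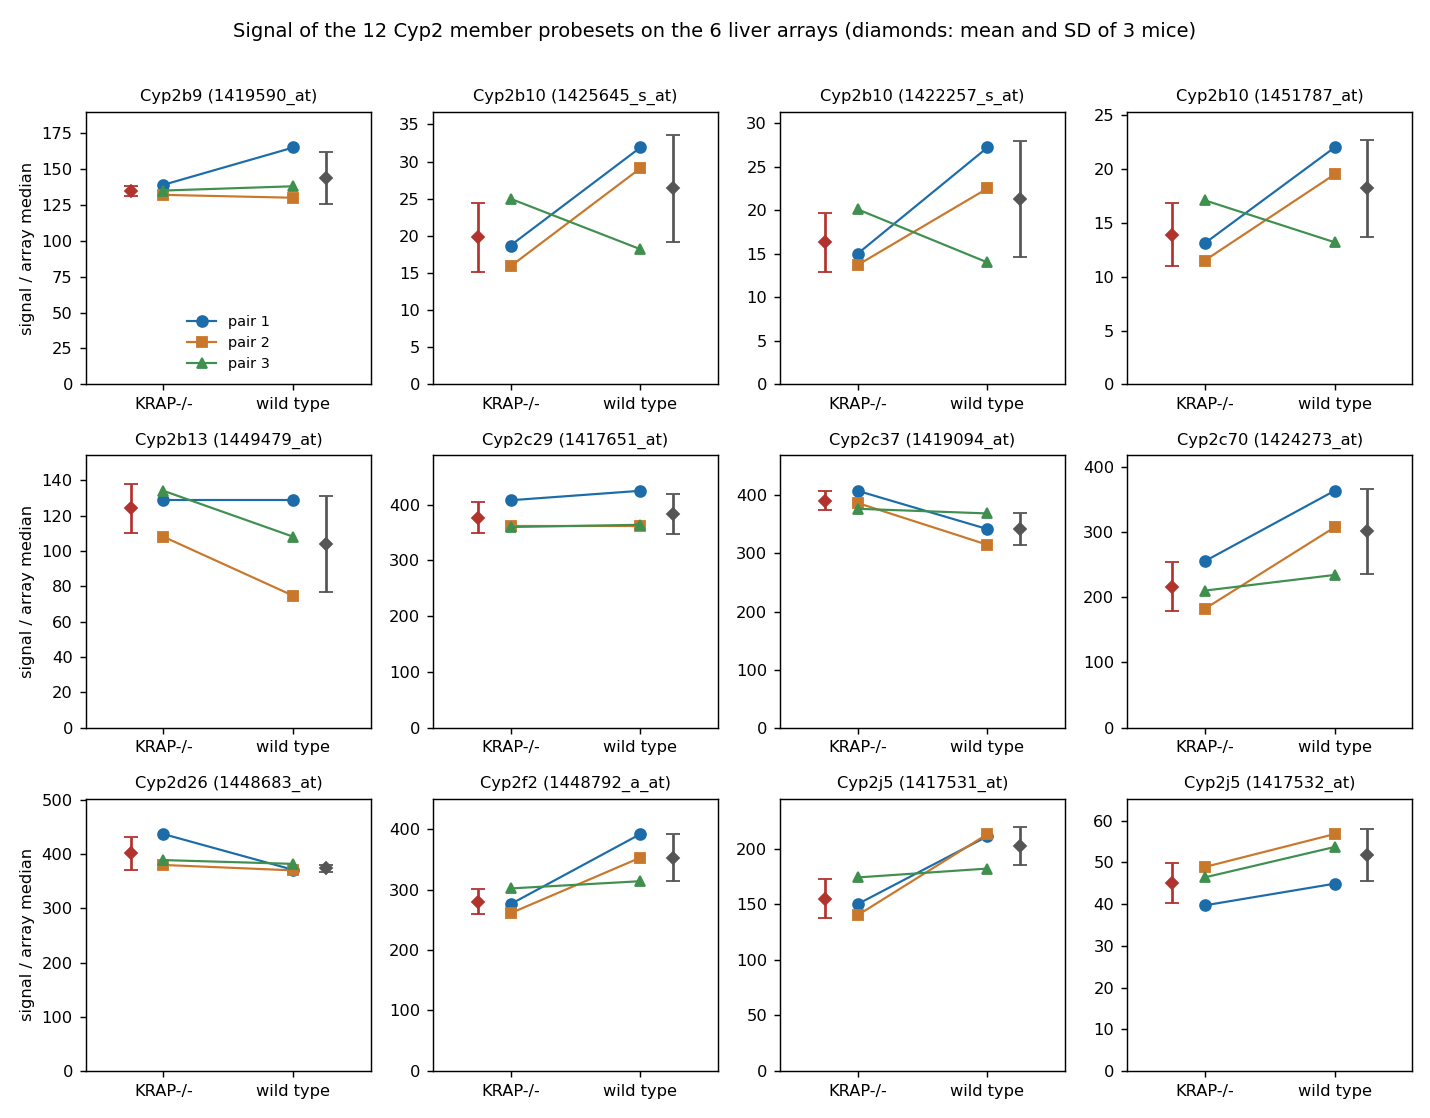
Signal over the array median (vertical axes, linear and starting at 0) of the 12 member probesets in KRAP-/- livers (left) and wild-type livers (right), with lines joining littermates and diamonds with bars for the mean and SD of 3 mice. The lines of pairs 1 and 2 run up to the wild type for Cyp2b10, Cyp2c70, Cyp2f2 and the brighter Cyp2j5 probeset, while the line of pair 3 is flatter or, for Cyp2b10, runs the other way, and the 3 lines of Cyp2c29 are nearly level.

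Cyp2b10 differed most between pairs. Its brightest probeset read 18.7, 15.9 and 25 in the KRAP-/- livers of pairs 1 to 3, against 31.9, 29.1 and 18.2 in their wild-type littermates. KRAP-/- livers were thus at 0.584 and 0.545 of their littermates in pairs 1 and 2 and at 1.37 in pair 3, and the groups overlapped. The second brightest and the dimmest probeset gave ratios of 0.549, 0.609 and 1.44 and of 0.595, 0.588 and 1.3, so the same pair stood apart at all 3. The log2 fold changes were -0.40, -0.35 and -0.38, with standard errors of 0.20 to 0.23 and adjusted p of 0.43 to 0.51. The brighter 2 are of a kind that may bind several transcripts, and the dimmest is not.

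Cyp2b9 and Cyp2b13, steroid hydroxylases that are more abundant in female than in male mouse liver, read differently. Cyp2b9 read 139, 132 and 135 in KRAP-/- livers and 165, 130 and 138 in wild-type livers. The coefficient of variation was 2.59% among KRAP-/- livers and 12.6% among wild-type livers, with the wild type of pair 1 highest, and the log2 fold change was -0.08 (95% interval -0.27 to 0.11, adjusted p = 0.69). Cyp2b13 read 129, 108 and 134 in KRAP-/- livers and 129, 74.6 and 108 in wild-type livers. Its ratios were 1, 1.44 and 1.24, the groups overlapped, and the log2 fold change was 0.28 (95% interval 0.05 to 0.52, adjusted p = 0.26 from limma). The ratio of Cyp2b13 was above that of Cyp2b9 in each pair, by 1.19, 1.42 and 1.27 times, which with 3 pairs gives p = 0.25 in a two-sided exact permutation test of signs, the smallest it can give. Whether each probeset reads 1 gene alone could not be checked against probe sequences.

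Cyp2c70 makes muricholic acids, the bile acids characteristic of mice, by hydroxylating chenodeoxycholic acid. Its signal was 255, 182 and 210 in KRAP-/- livers, against 363, 307 and 234 in wild-type livers. KRAP-/- livers were lower in all 3 pairs, at 0.702, 0.591 and 0.9 of the littermate, and the groups overlapped because the KRAP-/- liver of pair 1 read above the wild-type liver of pair 3. The fold change of 0.72 (95% interval 0.606 to 0.856, log2 -0.47, standard error 0.11) was the largest among the members, and its adjusted p of 0.084 did not pass.

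The other Cyp2c members oxidize arachidonic acid among other substrates. Cyp2c37 read 408, 387 and 377 in KRAP-/- livers, against 342, 315 and 369 in wild-type livers, so every KRAP-/- liver was above every wild-type liver, by 1.14-fold on average (log2 0.19, 95% interval 0.01 to 0.38, adjusted p = 0.32 from limma). Cyp2c29 read 408, 362 and 360 in KRAP-/- livers and 425, 362 and 364 in wild-type livers. Littermates were close to each other in every pair, with ratios of 0.96, 1 and 0.99, and the 95% interval of the fold change was 0.876 to 1.1.

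Cyp2f2, which oxidizes naphthalene and is mostly periportal in liver, read 276, 261 and 302 in KRAP-/- livers, against 392, 353 and 314 in wild-type livers. Every KRAP-/- liver was below every wild-type liver, yet in pair 3 by little, with ratios of 0.705, 0.738 and 0.962. The log2 fold change was -0.33 (standard error 0.10, adjusted p = 0.16 from limma). Cyp2j5, an epoxygenase of arachidonic acid, read 150, 140 and 174 in KRAP-/- livers and 211, 213 and 182 in wild-type livers at its brighter probeset. The groups did not overlap, the ratios were 0.71, 0.656 and 0.954, and the log2 fold change was -0.39 (standard error 0.11, adjusted p = 0.13 from limma). Its dimmer probeset read 39.7, 48.9 and 46.4 in KRAP-/- livers against 44.9, 56.8 and 53.7 in wild-type livers. There the 3 pairs were alike, with ratios of 0.883, 0.861 and 0.863, but mice differed between pairs and the groups overlapped (log2 -0.20, adjusted p = 0.3). In whole liver, fewer cells that express a gene and less RNA per cell cannot be told apart.

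Cyp2d26 read 437, 380 and 389 in KRAP-/- livers and 371, 370 and 382 in wild-type livers. The coefficient of variation was 7.57% among KRAP-/- livers and 1.8% among wild-type livers, the KRAP-/- liver of pair 1 was highest, and the 95% interval of the fold change was 0.947 to 1.22 (adjusted p = 0.59). The probeset that Cyp2a5 shares with Cyp2a4, not counted among the 12, read 369, 319 and 294 in KRAP-/- livers and 386, 333 and 317 in wild-type livers. Its ratios of 0.957, 0.959 and 0.928 were alike in the 3 pairs (log2 -0.08, 95% interval -0.24 to 0.09, adjusted p = 0.67), and it cannot say which of the 2 genes it read.

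**Figure D2:**
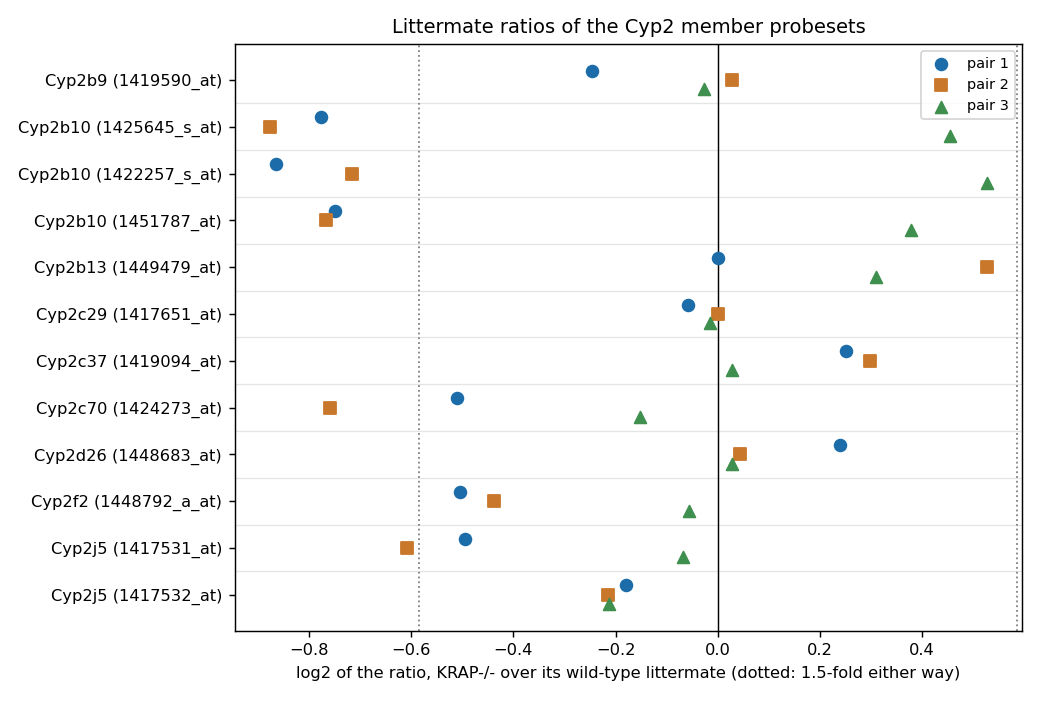
Log2 of the KRAP-/- signal over that of the wild-type littermate (horizontal axis) for each member probeset, with 1 point per littermate pair and dotted lines at 1.5-fold in either direction. The points of pair 3 (triangles) lie right of those of pairs 1 and 2 for Cyp2b10, Cyp2c70, Cyp2f2 and the brighter Cyp2j5 probeset, and 0 probesets have all 3 points past the same dotted line.

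Which of these genes passed the test depended on pair 3. At the brightest probesets of the 9 genes, ratios in pair 3 ran between 0.9 (Cyp2c70) and 1.37 (Cyp2b10), against 0.584 (Cyp2b10) to 1.19 (Cyp2c37) in pair 1 and 0.545 (Cyp2b10) to 1.44 (Cyp2b13) in pair 2. The median over the 9 genes was 0.843, 1 and 0.99 in pairs 1 to 3, and that over all fitted probesets was 0.979, 0.987 and 0.959. When pair 3 was left out, 6 of the 12 probesets were lower past the threshold, against 1.83% of all probesets, and 0 were higher, against 1.18%. They were the 3 probesets of Cyp2b10 (log2 fold changes -0.83, -0.79 and -0.76, adjusted p = 0.0019 to 0.0053 from limma), Cyp2c70 (-0.63, adjusted p = 0.0053), Cyp2f2 (-0.47, adjusted p = 0.022) and the brighter probeset of Cyp2j5 (-0.55, adjusted p = 0.0092). The dimmer Cyp2j5 probeset stayed at -0.20 (adjusted p = 0.4). With pair 1 or pair 2 left out instead, 0 member probesets passed. Each of these fits rests on only 2 pairs. For the genes that passed, pair 3 had the ratios nearest to 1 or above it, so leaving it out favours lower calls. The 3 Cyp2b10 probesets are also repeated readings of 1 gene. The 6 of 12 are therefore not separate evidence of a difference. Why the mice of pair 3 differed was not tested. The 3′ to 5′ signal ratio of beta-actin, a sign of RNA integrity, was 2.29, 2.28 and 2.32 on the KRAP-/- arrays and 2.65, 2.01 and 2.05 on the wild-type arrays of pairs 1 to 3. That of Gapdh was 0.795, 0.771 and 0.709 on the KRAP-/- arrays and 0.778, 0.741 and 0.729 on the wild-type arrays. It was lowest in pair 3 in both genotypes.

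**Figure D3:**
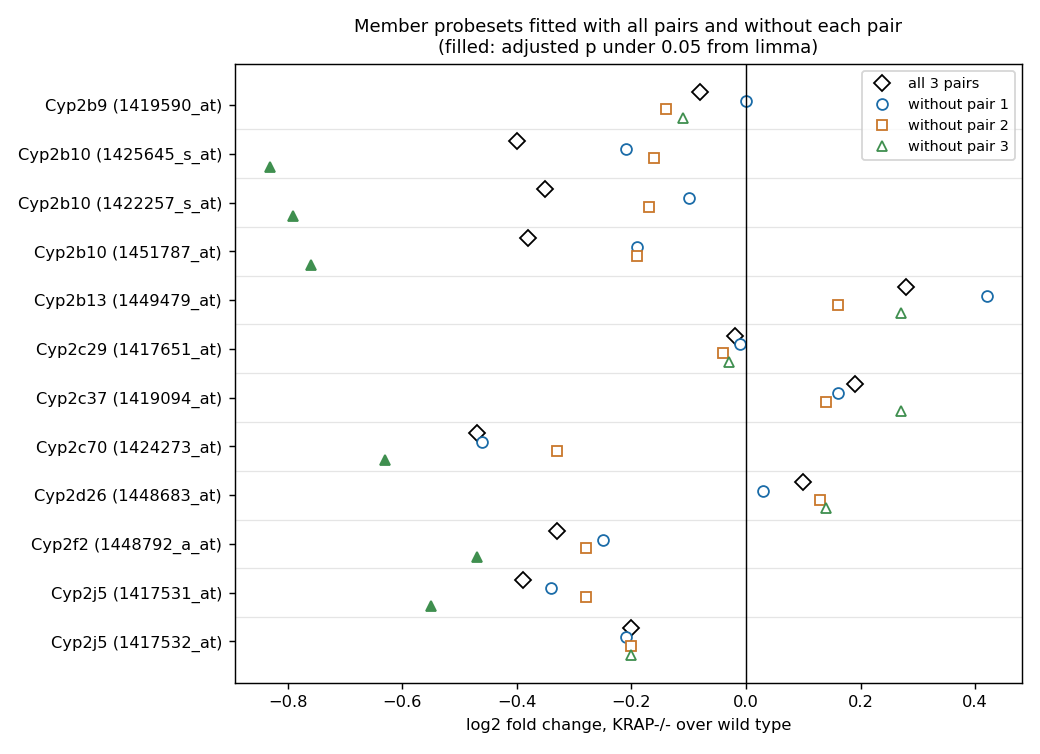
Log2 fold change of KRAP-/- over wild type (horizontal axis) of each member probeset with all 3 pairs (diamonds) and with 1 pair left out (circles, squares, triangles), filled where the adjusted p from limma was under 0.05. The 6 filled symbols are all triangles, without pair 3, at Cyp2b10, Cyp2c70, Cyp2f2 and Cyp2j5, between -0.83 and -0.47.

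Of the 40 other Cyp2 genes on the list, 26 had a probeset of their own and 22 were bright enough to test at the brightest one. Of these, 1 was higher and 0 were lower in KRAP-/- livers, against 0.333% and 1.31% of all genes at their brightest probeset, and their median log2 fold change was -0.06. Cyp2j9, a relative of Cyp2j5 best known from mouse brain, was the 1 that rose. It read 5.22, 5.37 and 4.09 in KRAP-/- livers, against 2.12, 2.29 and 2.86 in wild-type livers. The groups did not overlap, the ratios were 2.46, 2.34 and 1.43, and the fold change was 2.02 (95% interval 1.48 to 2.76, log2 1.01, adjusted p = 0.046), and this call was lost when pair 1 (adjusted p = 0.12) or pair 2 (adjusted p = 0.069) was left out. With no intensity trend or no limit on dim probesets, this call and those of all genes named below that passed with 3 pairs were lost (adjusted p = 0.38 to 0.44). Cyp2j9 was thus higher where Cyp2j5 and the brighter probeset of Cyp2j6 had ratios below 1. That probeset of Cyp2j6 read 6.69, 7.75 and 7.93 in KRAP-/- livers and 12.6, 12.5 and 9.14 in wild-type livers (log2 -0.60, adjusted p = 0.1, and -0.80 with adjusted p = 0.01 without pair 3). The dimmer Cyp2j6 probeset had ratios of 0.584, 0.758 and 1.1, and its groups overlapped (log2 -0.35, adjusted p = 0.41 from limma). Of the 30 probesets of other Cyp2 genes, 1 was higher (Cyp2j11) and 2 were lower (Cyp2u1 and Cyp2c65) by the 1.5-fold rule used above. Over all probesets the shares were 2.3% and 2.88%. The signals of these dim probesets averaged 0.334, 1.02 and 0.235, and only that of Cyp2u1 was fitted (log2 -1.29, adjusted p = 0.18 from limma). A second, dimmer probeset of Cyp2u1 did not meet the rule. Its ratios were 0.658, 1.58 and 0.698, and its groups overlapped (log2 -0.15, adjusted p = 0.93).

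Further genes of the family were named after their values had been seen. Cyp2r1, which adds the 25-hydroxyl group of vitamin D, read 7.11, 7.56 and 6.79 in KRAP-/- livers, against 10.8, 12.8 and 9.34 in wild-type livers. The groups did not overlap and the log2 fold change was -0.61 (standard error 0.12), with an adjusted p of 0.050 that missed the threshold and 0.024 without pair 3. Cyp2c55, a gene inducible through CAR and PXR, read 0.666, 2.38 and 2.85 in KRAP-/- livers and 5.46, 6.82 and 2.98 in wild-type livers (log2 -1.54, adjusted p = 0.15, and -2.28 with adjusted p = 0.0017 without pair 3). Like Cyp2b10 it was well below its littermate in pairs 1 and 2 and not in pair 3. Cyp2d9, a steroid hydroxylase of male liver, read 30.9, 22.7 and 44.9 in KRAP-/- livers and 46.9, 9.34 and 13.4 in wild-type livers. Its groups overlapped with all pairs (log2 0.81, adjusted p = 0.32), while without pair 1 it was higher (1.51, adjusted p = 5.7e-05). Cyp2e1, the ethanol-oxidizing P450, read 704, 654 and 622 in KRAP-/- livers and 653, 652 and 733 in wild-type livers (log2 -0.04, adjusted p = 0.87).

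**Figure D4:**
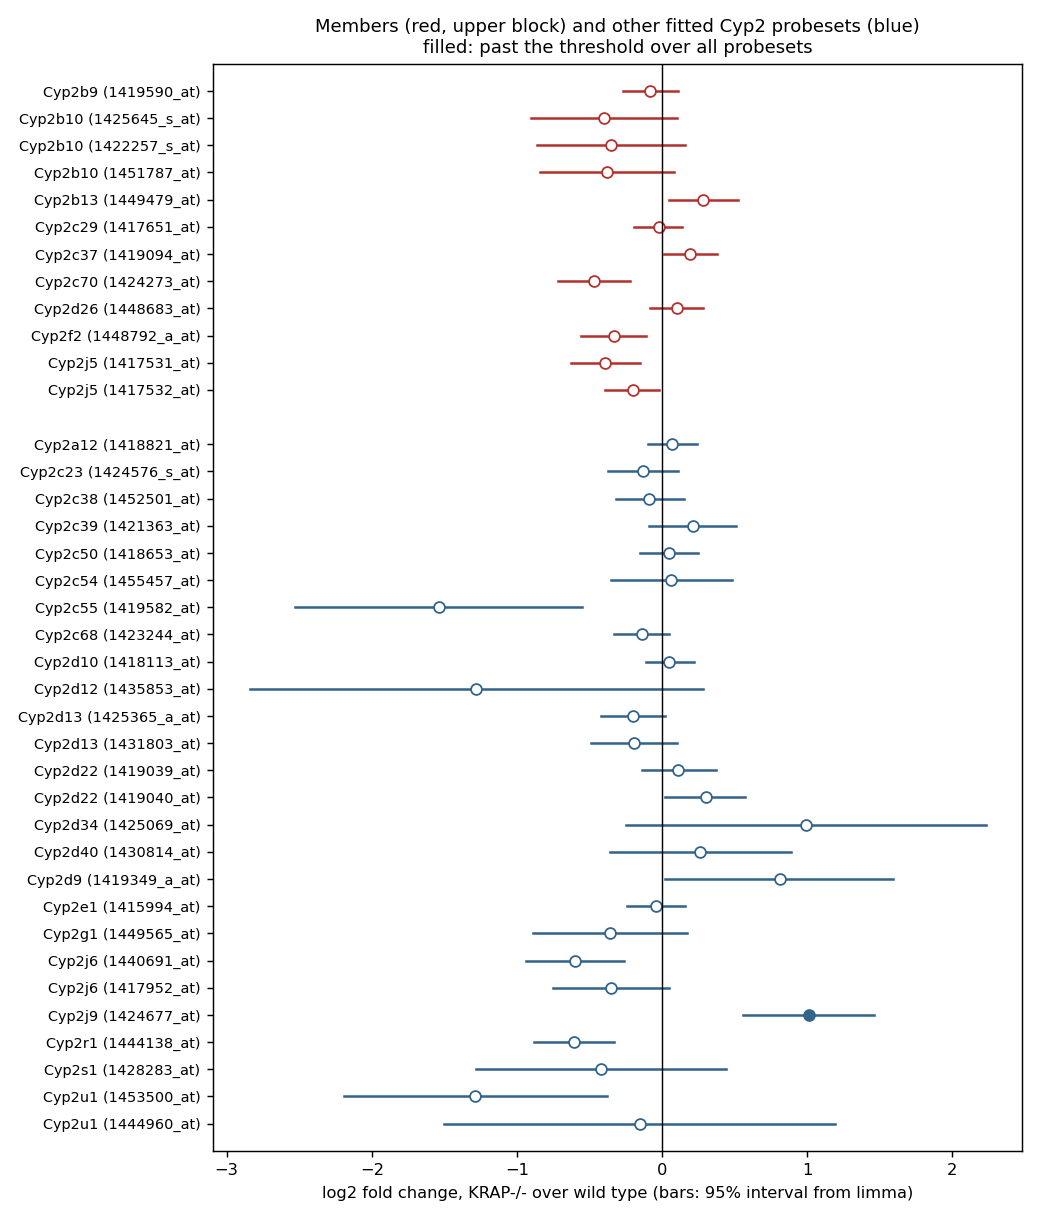
Log2 fold change of KRAP-/- over wild type with its 95% interval from limma (horizontal axis) for the 12 member probesets (red) and the 26 fitted probesets of other Cyp2 genes (blue), filled where the adjusted p was under 0.05. The 1 filled point is Cyp2j9 at 1.01, and the members lie between -0.47 and 0.28.

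Among 16 genes of electron supply and heme synthesis, 14 were tested, 1 rose and 2 fell in KRAP-/- livers, with a median log2 fold change of -0.05 against -0.08 over all genes. For this and every list below, 0.333% of all genes were higher and 1.31% lower. Cpox, an enzyme of heme synthesis, read 42.5, 32.4 and 44.6 in KRAP-/- livers, against 20.8, 16.6 and 29.5 in wild-type livers (log2 0.86, adjusted p = 0.0067), a call that was lost when the block was dropped (adjusted p = 0.06). Cyb5r3, the reductase of cytochrome b5, read 102, 98.6 and 93.1 against 178, 151 and 139 in wild-type livers (-0.66, adjusted p = 0.0065). Cyb5b, the cytochrome b5 of the outer mitochondrial membrane, read 84.6, 82 and 77.9 against 127, 110 and 114 in wild-type livers (-0.52, adjusted p = 0.018, and 0.078 on the values as deposited). The groups did not overlap for any of these 3 genes, while Cyb5a, the microsomal cytochrome b5, and Alas1, the first enzyme of heme synthesis, had log2 fold changes of 0.09 (adjusted p = 0.66) and 0.13 (adjusted p = 0.57). Por, the P450 oxidoreductase, had no probeset of its own.

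Of 17 regulators of Cyp2 genes, 16 were tested and 1 rose. Hlf, a PAR bZIP factor of the circadian output, read 14.8, 12.6 and 10.7 in KRAP-/- livers, against 7.43, 7.64 and 7.9 in wild-type livers (log2 0.72, adjusted p = 0.038), and this call was lost with pair 1 left out (adjusted p = 0.13). Dbp and Tef, factors of the same kind, did not follow it, at -0.37 (adjusted p = 0.23) and 0.06 (adjusted p = 0.84 from limma). Dbp read 18.7, 16.2 and 6.81 in KRAP-/- livers and 26.9, 23.3 and 7.02 in wild-type livers, lowest in pair 3 in both genotypes. Its ratios were 0.694, 0.695 and 0.97. The receptor genes did not pass either. Nr1i3 (CAR) read 49.1, 49.3 and 45.4 in KRAP-/- livers and 38.6, 37.4 and 41.8 in wild-type livers (0.29, adjusted p = 0.19), higher without overlap, and Nr1i2 (PXR) and Hnf4a had 0.08 (adjusted p = 0.86) and 0.09 (adjusted p = 0.72). Other regulators changed more and did not pass. They were Onecut1 (-0.81, adjusted p = 0.12 from limma), Ppara (0.71, adjusted p = 0.1, higher without overlap) and Nr0b2 (0.52, adjusted p = 0.12). Of 23 targets of CAR and PXR outside the family, 19 were tested, 0 rose and 2 fell, with a median of -0.09. Of the 19, 12 were below 0 and 7 above it. Those above it included Gsta2 (0.54, adjusted p = 0.4 from limma), Gadd45b (0.46, adjusted p = 0.27) and Slco1a4 (0.23, adjusted p = 0.27). Aldh1a7, an aldehyde dehydrogenase, read 105, 107 and 132 in KRAP-/- livers, against 200, 196 and 158 in wild-type livers (-0.69, adjusted p = 0.036, and 0.092 on the values as deposited). Its ratios were 0.525, 0.546 and 0.838. Papss2, which makes the sulfate donor of sulfotransferases, read 91.8, 83.1 and 73.2 in KRAP-/- livers, against 148, 116 and 95.7 in wild-type livers (-0.52, adjusted p = 0.026). Its ratio was 0.765 in pair 3, and its call was lost with pair 1 left out (adjusted p = 0.051), when the block was dropped (adjusted p = 0.13) and on the values as deposited (adjusted p = 0.11). Cyp3a11, the main PXR target of mouse liver, had 0.03 (adjusted p = 0.9).

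Genes that differ between male and female livers were read in a pair of lists, for which the shares over all genes were again 0.333% higher and 1.31% lower. Of 13 female-biased genes tested outside Cyp2, 4 fell (Cyp3a16, Cyp3a44, Cyp17a1 and Lifr), 0 rose and 9 did not pass, with 6 of the 13 above 0 and a median log2 fold change of -0.45. Lifr did not pass after quantile normalization (adjusted p = 0.056). Of 12 male-biased genes tested, 3 fell (Slco1a1, Serpina12 and Cyp7b1), 0 rose and 9 did not pass, with 2 of the 12 above 0 and a median of -0.75. Sult1e1, the estrogen sulfotransferase, named after its values were seen, stood on the female-biased list and on that of CAR and PXR targets. It read 2.08, 1.57 and 2.25 in KRAP-/- livers and 0.907, 0.661 and 0.177 in wild-type livers, higher without overlap, and did not pass (log2 2.04, standard error 0.52, adjusted p = 0.11). Cyp17a1, the 17-alpha-hydroxylase of steroid synthesis, read 20.4, 16.9 and 23.4 in KRAP-/- livers, against 56.7, 63.3 and 36.1 in wild-type livers (-1.33, adjusted p = 0.014). Cyp7b1, the oxysterol 7-alpha-hydroxylase, read 19.9, 22.2 and 23 in KRAP-/- livers, against 39, 41.5 and 32.7 in wild-type livers (-0.80, adjusted p = 0.011). The female-predominant Cyp2b9 and Cyp2b13 were not among the genes that passed.

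Several Cyp2 genes are zoned along the lobule, and markers of the zones were read beside them. Of 14 pericentral markers, 2 rose and 0 fell, with a median of 0.01. Slc1a2, a glutamate transporter, read 31.2, 30.1 and 27.5 in KRAP-/- livers, against 19.1, 18.9 and 18.4 in wild-type livers (log2 0.65, adjusted p = 0.012), and Slc13a3, a dicarboxylate transporter, also had 0.65 (adjusted p = 0.036, and 0.13 without pair 1). Of 12 periportal markers tested, 0 passed in either direction, with a median of 0.01, and the most changed were Cdh1 (-0.44, adjusted p = 0.22) and Aldh1b1 (-0.38, adjusted p = 0.38). Of the hepatocyte markers 0 of 8 passed, with a median of 0.01, and the most changed were Tat (-0.25, adjusted p = 0.38) and Apob (0.22, adjusted p = 0.26).

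Markers of other cells were read beside the Cyp2 genes. All 8 Kupffer cell markers had log2 fold changes below 0, as had 8208 of the 13217 genes tested. The median of these markers was -0.37, against -0.08 over all genes, and 1 fell, Clec4f (-0.54, adjusted p = 0.025, and 0.071 on the values as deposited). Their summed signal was 191 to 204 in KRAP-/- livers and 225 to 265 in wild-type livers. Lymphocyte markers summed to 8.62 to 10.1 in KRAP-/- livers and 12.3 to 14.9 in wild-type livers, with 0 of 4 past the threshold and a median of -0.90. Most of this sum was Ptprc, a marker of all leukocytes, at 6.59 to 7.12 in KRAP-/- livers and 8.64 to 10.9 in wild-type livers, and the most changed were Nkg7 (-1.73, adjusted p = 0.26) and Cd79a (-1.16, adjusted p = 0.49). The T cell marker Cd3e was too dim to fit and is not in that median. It went the other way, with ratios of 1.3, 1.61 and 1.66, though the groups overlapped. Stellate cell markers summed to 227 to 239 in KRAP-/- livers and 206 to 244 in wild-type livers, with 0 of 8 past the threshold, a median of -0.29 and Lrat (-0.66, adjusted p = 0.07) and Col3a1 (-0.55, adjusted p = 0.11) most changed. Of these 8, 6 were below 0 and 2 above it. Those above were the brightest, Dcn (0.21, adjusted p = 0.31 from limma) and Reln (0.16, adjusted p = 0.45), both higher in all 3 pairs. Endothelial markers summed to 85.3 to 89.1 in KRAP-/- livers and 91.8 to 103 in wild-type livers, with 0 of 6 past it and a median of -0.07, near the -0.08 of all genes. The endothelial genes that changed most were Lyve1 (-0.20, adjusted p = 0.66) and Clec4g (-0.19, adjusted p = 0.35), the brightest of the 6, while Pecam1 and Stab2 were both at 0.01. Cholangiocyte markers summed to 3.97 to 5.95 in KRAP-/- livers and 5.21 to 6.51 in wild-type livers, with 0 of 4 past the threshold, a median of -0.52 and Krt7 (-0.89, adjusted p = 0.65) and Krt19 (-0.54, adjusted p = 0.57) most changed, the sign of each turning when 1 pair was left out. Adipocyte markers summed to 8.56 to 11.5 in KRAP-/- livers and 8.6 to 26.2 in wild-type livers, with 0 of 3 past the threshold, a median of -1.17, Retn at -1.17 (adjusted p = 0.67) and Adipoq (-2.51, adjusted p = 0.25), the adipocyte hormone adiponectin, at 0.0318 to 0.253 in KRAP-/- livers and 0.444 to 2.2 in wild-type livers. Cyp2f2 and Cyp2j5 are also made in lung and kidney, and markers of those organs summed to 1.09 to 1.93 in KRAP-/- livers and 1.56 to 2.8 in wild-type livers, with Slc34a1 at -1.13 (adjusted p = 0.53) and Sftpc at -0.29 (adjusted p = 0.78). The part of these cells in the values of the Cyp2 genes was not tested.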

How the data were processed

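The authors deposited 1 intensity per probeset and array, a linear signal made with GCOS that was neither log transformed nor scaled between arrays. The later median scaling of the methods is not in these values. Control probesets (64) were left out, and each signal was divided by its array's median. With a floor of 0.1, log2 values of probesets averaging 0.5 or more entered limma 3.58.1 under R 4.3.3. The model had a block for each littermate pair, an intensity trend and Benjamini-Hochberg adjustment. It was also run on simulated data with normal noise and an effect shared by littermates. That setting need not match these arrays, so the run does not vouch for the calls. Tables and figures used Python 3.11.15 with pandas 2.3.3, numpy 2.4.6 and matplotlib 3.10.9. The platform annotation gave 1 symbol to 34945 probesets, several to 932 and none to 9160, and 0 columns of values were left unused. The pairing rests on the labels and methods, since deviations from the mean of the genotype correlated between littermates at only 0.0429, 0.00954 and -0.0124. A gene is its brightest probeset in the lists. The members and the 18 other lists were chosen with earlier results of these data known. Named were every member probeset, other Cyp2 genes that passed, and in each list up to 4 that passed or, failing that, the 2 that changed most, besides regulators and relatives named for their role or after their values were seen. The number of arrays limits the precision. The results were recomputed on unscaled and on quantile-normalized values, with floors of 0.01 and 0.5, with a pseudocount, with a limit of 1 or none for dim probesets, without the block, the trend or probesets that may cross-hybridize, with a 2-fold rule and with each pair left out.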

Additional observations from a re-analysis of the deposited data

How the results depend on the processing

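With 3 pairs a difference under about the spread of these mice could not be called, and signals have no flags for saturation or background here. Of 154 values of the member probesets under alternatives, 147 kept their direction and their side of the threshold and 6 passed, all without pair 3. The direction of 1, Cyp2c29, turned, with 0.03 on the values as deposited. Member probesets past the threshold and higher numbered 0 under every alternative run, and those lower ranged between 0 and 6 when a pair was left out. Over all probesets, 123 were higher and 279 lower, 110 to 338 and 267 to 522 when a pair was left out. With no limit on dim probesets 0 and 0 passed (4551 at an unadjusted p under 0.05, 2 of them members), and with no intensity trend 0 and 0 (3089 and 0). All calls named above from the fit of 3 pairs were lost in both. Scaling moved the split, to 170 higher and 205 lower on the values as deposited and 151 and 208 after quantile normalization, where the median log2 fold change of all probesets was 0.01 and 0.00, against -0.04. Without the replicate block 93 were higher and 255 lower, 0 and 0 of them members, and Cpox and Papss2 no longer passed (adjusted p = 0.06 and 0.13). Other Cyp2 genes that were higher numbered 0 with no limit, with no trend and without pair 2 (0 to 1 with a pair left out). Those that were lower numbered 1, Cyp2r1, with a floor of 0.5, a pseudocount of 0.25, a mean of at least 1 or no cross-hybridizing probesets, and 0 to 3 with a pair left out. On the values as deposited Aldh1a7, Papss2, Cyb5b and Clec4f did not pass (adjusted p = 0.092, 0.11, 0.078 and 0.071), nor did Lifr after quantile normalization (0.056). Direction turned when a pair was left out for the brighter Cyp2d22 probeset (-0.04 to 0.24, negative without pair 3), Krt7 (-1.88 to 0.33) and Lyve1 (-0.44 to 0.06), positive without pair 2, and Krt19 (-0.93 to 0.03), positive without pair 1. The causes were not tested.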
